A study of Mus musculus with 22 samples.

Results

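10 autosomal genes whose microarray level differed between 2 mouse strains were followed here through every array of a study of blastocysts: Timmdc1, Ggct, Atp10d, Rps6kl1, Trappc12, Aqr, Rmdn3, Tomm22, Ccdc93 and Ccdc144b. They are 10 of the 9345 genes that had a measurable probe. The genes were chosen by their measured difference between B6 and CD1 embryos, averaged over 3 of the 4 ways in which the embryos had developed, so that difference is given for them as a description without a test. They are not all the genes with such a difference: 31 of the 12992 kept probes had passed an adjusted p of 0.05 (limma) in that contrast, 1 for each of the 10 genes and 21 for others. That count is unstable, since leaving out 1 array at a time gave from 3 probes, without any of several HTF, ISM1 or B6 in vivo arrays, to 80 without CD1 in vivo replicate 1. Every probe of a named gene on the array was read, which made 18 probes, and 17 of them had a detection p under 0.05 on at least 3 of the 22 arrays and were kept. Tomm22 had the last value inside the threshold (adjusted p 0.0462, difference -0.92), level with Ift20, and the first value outside it belonged to a probe without a gene name (adjusted p 0.0504, difference -2.13), followed by Zfp930 (adjusted p 0.0571) and Atf4 (adjusted p 0.0591).

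The study hybridized total RNA of mouse blastocysts at embryonic day 3.5 to 1-colour bead arrays. B6 names the C57BL/6 background, an inbred strain, and CD1 is an outbred stock. Embryos of both backgrounds had developed in vivo or in 1 of 3 culture media, called KSOM, HTF and ISM1 in the labels, and no agent or allele besides these is named. Each of the 8 combinations had 3 arrays, which the series text calls biological replicates, except CD1 in KSOM with 1 array, giving 12 B6 and 10 CD1 arrays. How many embryos or litters made up one RNA sample is not given in the sources used here, so a p-value measures the spread between these arrays. Levels below are log2 normalized intensities, and a gap is the mean of CD1 minus the mean of B6 on that scale.

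Several of the 10 genes belong to well-known cellular machines. The translocase of the outer mitochondrial membrane imports proteins made in the cytosol, and complex I of the respiratory chain is put together in the inner membrane with the help of assembly factors, while contact sites tie mitochondria to the endoplasmic reticulum. In the blastocyst, the outer trophectoderm draws heavily on mitochondrial ATP to pump ions and expand the cavity. The other genes act in glutathione turnover, in moving phospholipids across membranes, in vesicle tethering and endosomal recycling, and in splicing.

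The promoters of Timmdc1, Ggct and Aqr are shown because these had the smallest p-values in the strain contrast among the 10 genes with detected signal in both strains. They are RefSeq sequences on GRCm38.p6, the C57BL/6J reference, 250 bases before to 50 bases after the start, 5′ to 3′ on the strand of the gene. No CD1 sequence was used. Capitals mark CCAAT and GGGCGG on either strand, without overlap between the motifs.
Timmdc1, chr16:38522614-38522913, minus strand: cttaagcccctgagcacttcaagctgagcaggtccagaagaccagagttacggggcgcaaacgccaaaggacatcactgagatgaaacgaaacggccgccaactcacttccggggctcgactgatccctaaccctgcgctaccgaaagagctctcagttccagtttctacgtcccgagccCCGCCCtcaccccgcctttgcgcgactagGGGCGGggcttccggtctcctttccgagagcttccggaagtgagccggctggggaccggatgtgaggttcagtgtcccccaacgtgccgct
Ggct, chr6:54992818-54993117, minus strand: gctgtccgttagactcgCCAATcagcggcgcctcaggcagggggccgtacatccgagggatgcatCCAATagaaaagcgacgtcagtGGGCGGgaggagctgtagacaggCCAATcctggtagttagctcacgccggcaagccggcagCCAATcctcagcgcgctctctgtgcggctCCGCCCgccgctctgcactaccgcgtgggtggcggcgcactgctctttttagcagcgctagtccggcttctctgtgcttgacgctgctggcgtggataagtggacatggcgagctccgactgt
Aqr, chr2:114175290-114175589, minus strand: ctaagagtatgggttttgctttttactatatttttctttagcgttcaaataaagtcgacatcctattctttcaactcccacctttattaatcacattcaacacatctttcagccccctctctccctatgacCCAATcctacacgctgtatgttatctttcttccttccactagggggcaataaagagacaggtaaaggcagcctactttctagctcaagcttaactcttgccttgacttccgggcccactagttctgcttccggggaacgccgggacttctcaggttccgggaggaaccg
Ggct held 4 CCAAT and 2 GGGCGG matches, Timmdc1 held 0 and 2, and Aqr held 1 and 0. Of 8 genes of the 10 with a promoter in the table, 3 held CCAAT and 5 held GGGCGG, and over all 32851 promoters of this length the shares were 37.4% and 35.7%. These are letter matches only.

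In the contrast by which the genes were chosen, 6 were higher in CD1 and 4 lower. The higher ones were Timmdc1, Ggct, Atp10d, Rps6kl1, Trappc12 and Ccdc144b, and the lower ones Aqr, Rmdn3, Tomm22 and Ccdc93. Over all kept probes the same threshold called 0.123% higher and 0.115% lower in CD1. The probe of each gene with the highest mean, called its leading probe here, had the same sign in HTF, in ISM1 and in vivo for 10 of 10 genes. CD1 and B6 arrays did not overlap for 9 leading probes in HTF, 9 in ISM1 and 10 in vivo. The in vivo sign and order of Rps6kl1 are among these but are not read, since neither strain was detected there. Across all kept probes, CD1 lay wholly above B6 for 7.45% and wholly below for 5.83% in HTF, 3.7% and 3.93% in ISM1, and 4.87% and 5.43% in vivo. All 9 CD1 arrays of these 3 conditions lay on one side of all 9 B6 arrays for 6 leading probes, against 0.0308% of kept probes above and 0.0693% below. Because the choice of genes rests on these arrays, nothing is read from that comparison.

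**Figure D1:**
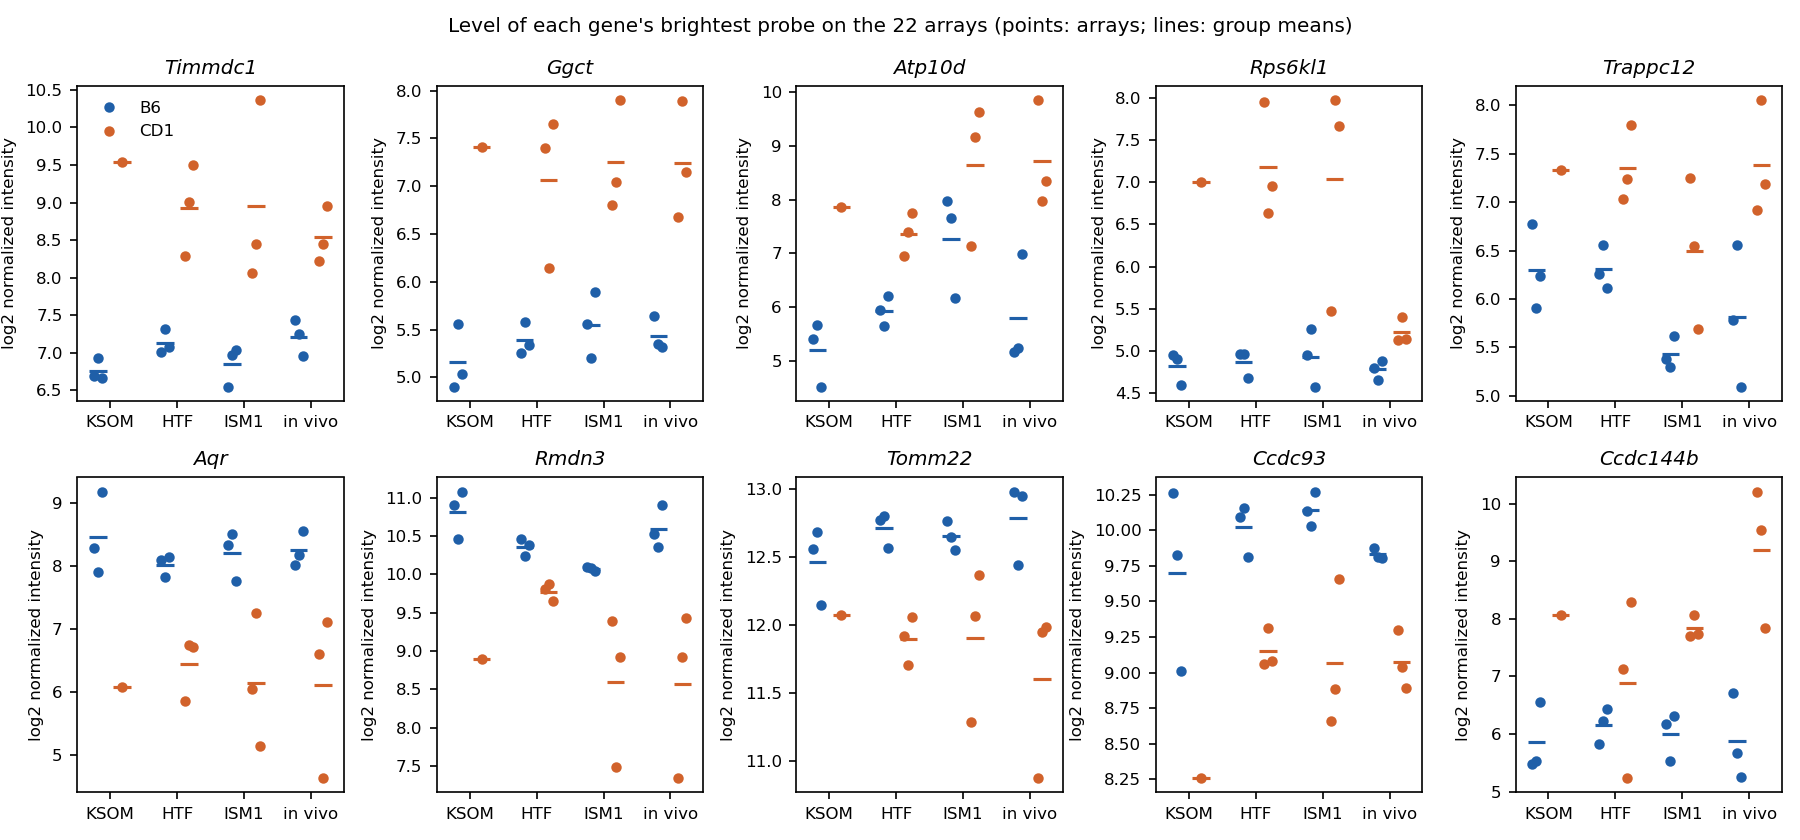
Log2 normalized intensity of the leading probe of each of the 10 genes on the 22 arrays, by development in KSOM, HTF, ISM1 or in vivo, with B6 in blue and CD1 in orange. Each point is 1 array and each short line a group mean, the scales differ between panels, and the single CD1 array in KSOM lies outside the 3 B6 arrays in all 10 panels.

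Levels in KSOM did not enter the choice, so the side on which the CD1 array lay is a measurement apart from it. The spread of the 3 B6 arrays in KSOM did enter the choice, as part of the spread of the model. The CD1 array lay on the same side of B6 as in the other conditions for 10 of 10 leading probes and for 16 of the 17 kept probes. The share of all kept probes with such a match was not computed, so nothing is read from these counts. Rps6kl1 is among the 10, though B6 was under detection for it and only cultured CD1 arrays kept it. The CD1 array lay beyond all 3 B6 arrays for 10 of 10 leading probes, while over all kept probes 24.4% lay above and 23.8% below all 3. With 1 array on one side, the spread was taken from the model of all groups, which assumes that the lone array varies as the other groups do. That spread comes mostly from the arrays that chose the genes, so the p-values in KSOM are not independent of the choice. Nor is a position beyond all 3 B6 arrays, since a small spread of these arrays favours both. Of the 10 genes, 0 passed an adjusted p of 0.05 in KSOM (limma), where 0.0077% of kept probes did, a single probe of the Y-linked gene Eif2s3y. At an unadjusted p of 0.05 there were 8 of the 10 genes by their leading probe and 9 of 17 probes, against 5.21% of kept probes, and nothing is read from that share. The leading probes of Trappc12 and Tomm22 were not under it.

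**Figure D2:**
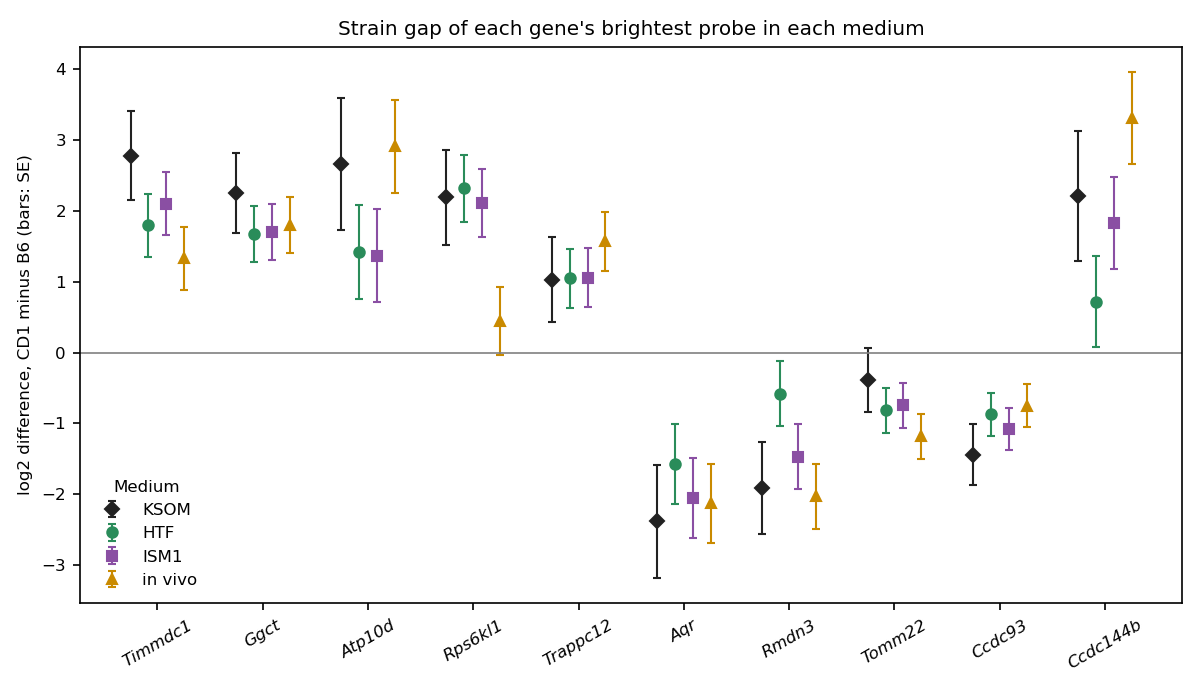
Difference of CD1 minus B6 in log2 normalized intensity for the leading probe of each gene in KSOM, HTF, ISM1 and in vivo, with bars of 1 SE from the model of all 22 arrays (Rps6kl1 was not detected in B6, nor in CD1 in vivo). The 6 genes higher in CD1 lie above 0 in all 4 conditions and Aqr, Rmdn3, Tomm22 and Ccdc93 below 0, with 1 CD1 array behind each KSOM point.

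Timmdc1, an assembly factor of complex I in the inner mitochondrial membrane, lies on chromosome 16 and has 1 probe, detected on all 22 arrays. B6 arrays read 7.02, 7.31 and 7.08 in HTF, 6.55, 6.98 and 7.04 in ISM1, and 7.43, 7.25 and 6.95 in vivo. CD1 arrays read 8.29, 9.01 and 9.50 in HTF, 8.07, 8.45 and 10.36 in ISM1, and 8.23, 8.44 and 8.96 in vivo. Every CD1 array was thus above every B6 array, and the highest reading came from a single ISM1 array. The gap was 1.80 in HTF, 2.10 in ISM1 and 1.33 in vivo (SE 0.45 each), and 1.74 on average (SE 0.26), a 3.35-fold higher level. In KSOM the B6 arrays read 6.69, 6.93 and 6.66 and the CD1 array 9.54. That gap was 2.78 (SE 0.63, limma adjusted p = 0.511). Without CD1 ISM1 replicate 3, the array at 10.36, that gap was still 2.78, since this array enters the KSOM fit only through the spread. Whether the gap differed between HTF, ISM1 and in vivo had an adjusted p of 1.00 (limma F test).

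Ggct encodes gamma-glutamylcyclotransferase, which forms 5-oxoproline in the breakdown of glutathione, and lies on chromosome 6. Its leading probe was detected on 7 of 12 B6 arrays, and on 1 of 3 in KSOM. The gaps thus rest partly on B6 values under detection. In CD1 the probe was detected on 10 of 10 arrays. In B6 it read 5.25, 5.58 and 5.34 in HTF, 5.55, 5.20 and 5.89 in ISM1, 5.64, 5.35 and 5.31 in vivo, and 4.90, 5.56 and 5.03 in KSOM. In CD1 it read 7.40, 6.14 and 7.65 in HTF, 6.81, 7.04 and 7.90 in ISM1, 6.67, 7.90 and 7.15 in vivo, and 7.42 in KSOM. The strains did not overlap, since the lowest CD1 array at 6.14 was above the highest B6 array at 5.89. Gaps in the 3 chosen conditions were close to each other at 1.67, 1.70 and 1.80 (SE 0.40 each), and averaged 1.73 (SE 0.23), or 3.31-fold. The KSOM gap was 2.25 (SE 0.56, limma adjusted p = 0.586).

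Atp10d, a P4-ATPase of the family that moves lipids from the outer to the inner leaflet of membranes, lies on chromosome 5. RefSeq lists it as a transcribed pseudogene in the C57BL/6J reference, and C57BL/6 mice are known to carry a premature stop codon in it. B6 arrays ran from 4.53 through a median of 5.81 to 7.97 and were detected in 9 of 12 cases, whereas CD1 arrays ran from 6.94 through 7.92 to 9.84 and were detected in 10 of 10. In ISM1 the strains overlapped, with B6 at 7.97, 7.66 and 6.17 and CD1 at 7.13, 9.15 and 9.61. In vivo they did not, with B6 at 5.18, 5.24 and 6.99 and CD1 at 9.84, 7.97 and 8.34, nor in HTF, with B6 at 5.95, 5.67 and 6.22 and CD1 at 6.94, 7.39 and 7.75. The gap was 1.42 in HTF, 1.37 in ISM1 and 2.91 in vivo (SE 0.66 each), and their difference between conditions had an adjusted p of 1.00 (limma F test). In KSOM, B6 at 5.42, 5.67 and 4.53 faced CD1 at 7.87, a gap of 2.66 (SE 0.93, limma adjusted p = 0.908).

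Rps6kl1, a member of the ribosomal S6 kinase family by sequence, lies on chromosome 12. Its probe was detected on 0 of 12 B6 arrays and on 7 of 10 CD1 arrays. The 7 were the cultured ones, at 7.96, 6.64 and 6.96 in HTF, 5.47, 7.98 and 7.67 in ISM1 and 7.01 in KSOM. CD1 blastocysts from in vivo read 5.13, 5.40 and 5.14 and were not detected, and B6 arrays ran from 4.57 to 5.26. Signal above background was thus seen on each cultured CD1 array and on no other. With the B6 arrays set to the lowest signal detected on each, CD1 was at least 3.60-fold higher in HTF, 3.08-fold in ISM1 and 2.88-fold in KSOM, and no fold is given in vivo, where neither strain was detected. The gaps of this gene in the plot of gaps by condition are fitted to B6 values under detection and are not read as sizes, nor is their difference between conditions. The fit in KSOM had a limma adjusted p of 0.857.

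Trappc12, a subunit of the TRAPP complex that tethers transport vesicles, lies on the same chromosome. B6 arrays ran from 5.10 through a median of 6.01 to 6.77 and CD1 arrays from 5.69 through 7.21 to 8.05, so that the strains overlapped when conditions were pooled. Within each condition they did not overlap, and ISM1 was nearest to it, with B6 at 5.38, 5.30 and 5.62 and CD1 at 7.25, 6.55 and 5.69. The gap was 1.05 in HTF, 1.06 in ISM1 and 1.57 in vivo (SE 0.42 each), 2.34-fold on average. In KSOM the B6 arrays at 6.77, 5.90 and 6.24 lay below the CD1 array at 7.33, and the gap was 1.03 (SE 0.60, limma adjusted p = 0.924).

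Ccdc144b, a coiled-coil protein gene on chromosome 3, had a gap that ranged widely across conditions. B6 arrays stayed between 5.26 and 6.72 throughout. CD1 arrays read 10.21, 9.54 and 7.84 in vivo, 7.70, 8.07 and 7.74 in ISM1, 7.13, 5.23 and 8.29 in HTF, and 8.07 in KSOM. HTF was the condition in which the strains overlapped, through a CD1 array at 5.23 that was not detected. The lowest B6 array, at 5.26 in vivo, was not detected either, so the order of these is not read. The gap was 0.72 in HTF, 1.83 in ISM1 and 3.31 in vivo (SE 0.65 each), and the F test over these was under an unadjusted p of 0.05, with an adjusted p of 1.00 (limma). In KSOM it was 2.21 (SE 0.91, limma adjusted p = 0.917). A second probe of the gene was detected on 0 of 22 arrays and read between 4.53 and 5.21, so it gives no second reading of the gap.

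Aqr, the RNA helicase of the spliceosome's intron-binding complex, lies on chromosome 2 and was lower in CD1. Its leading probe read 8.09, 7.82 and 8.13 in B6 and 5.85, 6.75 and 6.71 in CD1 embryos from HTF. In ISM1 the readings were 8.33, 8.51 and 7.76 against 6.04, 7.25 and 5.13, and in vivo 8.01, 8.17 and 8.54 against 6.59, 4.63 and 7.11. The strains stayed apart on all 22 arrays, and 2 of the 10 CD1 arrays fell below detection. The gap was -1.58 in HTF, -2.06 in ISM1 and -2.13 in vivo (SE 0.56 each), 3.79-fold lower on average. In KSOM, B6 at 8.28, 7.91 and 9.17 lay above CD1 at 6.07, with a gap of -2.38 (SE 0.80, limma adjusted p = 0.896).

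Rmdn3, an outer mitochondrial membrane protein that binds partners on the endoplasmic reticulum, is also on chromosome 2. B6 arrays of its leading probe read 10.45, 10.24 and 10.38 in HTF, 10.10, 10.08 and 10.04 in ISM1, and 10.52, 10.36 and 10.91 in vivo. CD1 arrays read 9.80, 9.87 and 9.65 in HTF, 9.39, 7.49 and 8.93 in ISM1, and 7.35, 8.93 and 9.43 in vivo. No CD1 array reached the lowest B6 array, and the CD1 arrays spread far more in ISM1 and in vivo than in HTF. The gap was -0.58 in HTF, -1.47 in ISM1 and -2.03 in vivo (SE 0.46 each), a difference between conditions with an adjusted p of 1.00 (limma F test). In KSOM the B6 arrays at 10.90, 10.46 and 11.07 faced CD1 at 8.90, a gap of -1.91 (SE 0.65, limma adjusted p = 0.896).

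Tomm22, the central receptor of the outer-membrane translocase, lies on chromosome 15. It read 12.77, 12.80 and 12.56 in B6 and 11.92, 11.70 and 12.06 in CD1 embryos from HTF, and 12.76, 12.64 and 12.55 against 11.29, 12.06 and 12.37 in ISM1. In vivo the B6 arrays read 12.98, 12.44 and 12.94 and the CD1 arrays 10.87, 11.94 and 11.98. The strains did not overlap within any of these conditions. The gap was -0.82, -0.74 and -1.19 in that order (SE 0.32 each), 1.89-fold lower on average. KSOM showed the least: B6 at 12.55, 12.68 and 12.15 against CD1 at 12.07 gave -0.39 (SE 0.45, limma adjusted p = 0.969), within 2 SE of both 0 and the average gap of the other conditions.

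Ccdc93, a subunit of the CCC complex that returns membrane proteins from endosomes to the cell surface, lies on chromosome 1. Its leading probe ran from 9.02 through a median of 9.95 to 10.27 in B6 and from 8.26 through 9.05 to 9.66 in CD1. Within each condition the strains were apart. The gap was -0.87 in HTF, -1.08 in ISM1 and -0.75 in vivo (SE 0.30 each), 1.87-fold lower on average. In KSOM, B6 at 10.26, 9.83 and 9.02 lay above CD1 at 8.26, with a gap of -1.44 (SE 0.43, limma adjusted p = 0.794).

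4 of the 10 genes, Ggct, Aqr, Rmdn3 and Ccdc93, had more than 1 kept probe, with 7 probes besides the leading ones. Of the 7, 6 had a gap in the direction of the leading probe and 2 had over 50% of its size. A base that differs between the strains under a probe can change its signal without a change in RNA, and different probes of a gene can read different transcripts. The probe sequences were not used here, so neither was tested, and for the 6 genes with 1 kept probe no second reading exists.

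**Figure D3:**
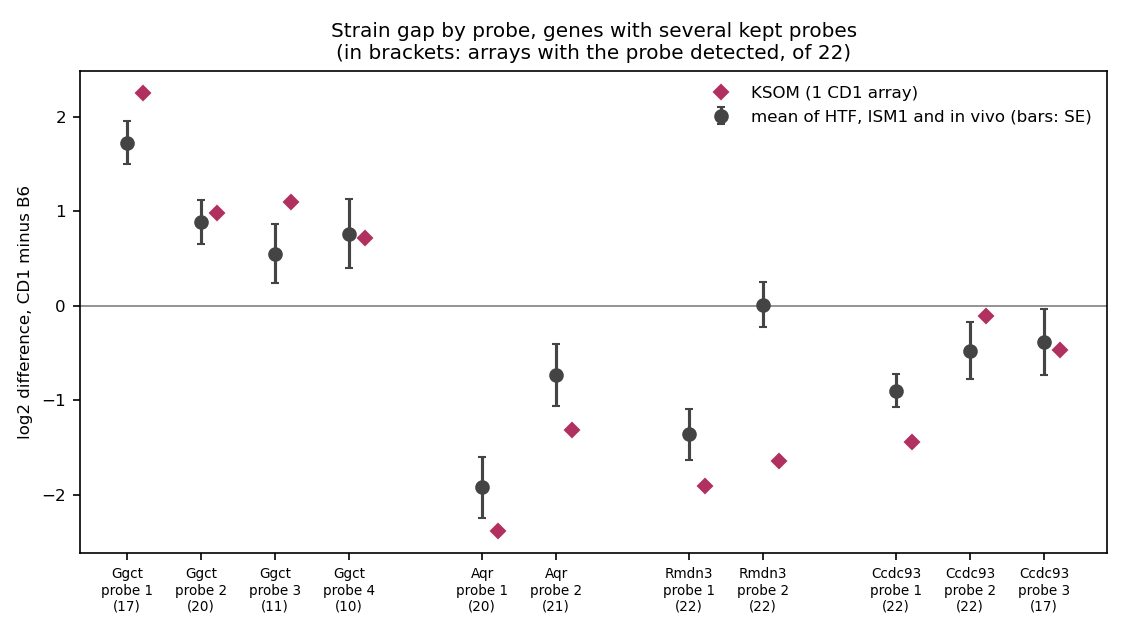
Difference of CD1 minus B6 in log2 normalized intensity for each kept probe of the 4 genes with several, averaged over HTF, ISM1 and in vivo (circles, bars of 1 SE) and in KSOM (diamonds, 1 CD1 array). The leading probe of each gene stands first and lies farthest from 0 in both measures, and the second probe of Rmdn3 sits at 0.01 on average but at -1.65 in KSOM.

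The other Ggct probes gave fitted mean gaps of 0.89 (SE 0.23), 0.55 (SE 0.31) and 0.77 (SE 0.36), the last 2 partly against B6 groups under detection. In KSOM the first and last had gaps of 0.98 and 0.72, and the middle one, under detection in B6, was at least 1.87-fold higher in CD1. All 3 pointed the same way as the leading probe, at smaller sizes. Before background correction and normalization, their mean intensities in vivo were lower in CD1, at 140, 139 and 147 against 168, 172 and 169 in B6. Those in ISM1 were also lower in CD1, while those in HTF and KSOM were higher. The direction in vivo and in ISM1 thus rests on those steps. The first of the 3 probes was detected on 20 of the 22 arrays and kept the strains apart in ISM1 and in vivo. In HTF its B6 arrays at 5.42, 6.15 and 6.01 overlapped CD1 at 6.91, 5.51 and 6.65. The others were detected on 11 and 10 arrays and overlapped in 3 and 2 of the 3 conditions. For the last, B6 was detected on 0 of 3 arrays in HTF and in ISM1, and CD1 was at least 2.08-fold higher in HTF, with no fold given in ISM1.

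The second Aqr probe had a mean gap of -0.73 (SE 0.33) and a KSOM gap of -1.32 (SE 0.80). It kept the strains apart in HTF and ISM1, but in vivo the CD1 arrays at 7.73, 4.59 and 7.30 spanned the B6 arrays at 6.90, 7.49 and 7.86. The array at 4.59 was the same CD1 array that gave the lowest value of the leading probe, 4.63, and without it the mean gap of this second probe was -0.40.

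The second Rmdn3 probe went furthest from its leading probe. Its gap was -0.41 in HTF, 0.24 in ISM1 and 0.20 in vivo (SE 0.41 each), with a mean of 0.01 (SE 0.24), and the strains overlapped in each. In KSOM the B6 arrays read 7.71, 6.92 and 8.09 and the CD1 array 5.93, a gap of -1.65 (SE 0.58, limma adjusted p = 0.908). Thus the 2 probes of this gene lay on the same side of 0 in KSOM and HTF and on opposite sides in ISM1 and in vivo. For Ccdc93 the other probes had mean gaps of -0.47 (SE 0.30) and -0.38 (SE 0.35), and their strains overlapped in HTF, in ISM1 and in vivo.

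Differences between media were not used to choose the genes. The tests of them share the spread of the model with the strain contrast, so their p-values are not independent of the choice. Nothing is read from the unadjusted shares below. None of the 10 genes passed an adjusted p of 0.05 in the 4 tests that follow (limma, adjusted over all kept probes). For HTF minus in vivo, averaged over the strains, 0.154% of kept probes passed, and at an unadjusted p of 0.05 there were 3 of the 17 member probes against 7.7% of all. For ISM1 minus in vivo 0% passed, with 4 member probes at the unadjusted threshold against 3.39%. For KSOM minus in vivo in B6, 0.0154% passed, with 1 member probe against 5.46%. For a strain gap that differs between HTF, ISM1 and in vivo 0% passed, and 2 members, Rps6kl1 and Ccdc144b, were under the unadjusted threshold against 1.21%. Of these only Ccdc144b was detected in vivo, so the value of Rps6kl1 is not read.

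Some of these readings rest on groups under detection. Rps6kl1 was among them in both HTF and ISM1, but it was detected on 0 of 3 in vivo arrays of either strain and kept only through cultured CD1 arrays, so no difference is given. The leading probe of Ccdc144b gave a difference of -1.01 in HTF (SE 0.46, limma adjusted p = 0.608), an average over strains that went opposite ways. Its mean was 6.17 in HTF and 5.88 in vivo in B6, and 6.89 and 9.20 in CD1. The second Ccdc93 probe had -0.88 in HTF (SE 0.37, limma adjusted p = 0.563). That was close to the third probe at -0.82 (SE 0.43, limma adjusted p = 0.697) but not to the leading probe at 0.13 (SE 0.21). In ISM1, Trappc12 had -0.64 (SE 0.30, limma adjusted p = 0.999), with 1 of 3 B6 arrays detected there. The 2 Ggct probes with the fewest detected arrays were also under the unadjusted threshold in ISM1, where 0 of 3 B6 and 1 of 3 CD1 arrays detected them, and no difference is given for them. The second Rmdn3 probe was 1.21 higher in B6 embryos from KSOM than from in vivo (SE 0.41, limma adjusted p = 0.711).

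The spread between arrays is given as a description, since it comes from the arrays by which the genes were chosen. The SD over 3 arrays was larger in CD1 than in B6 for 9 leading probes in HTF, 9 in ISM1 and 8 in vivo, while over all kept probes this held for 50.6%, 68.5% and 63.7%. The median SD of the leading probes was 0.17 in B6 and 0.45 in CD1 in HTF, 0.31 and 0.89 in ISM1, and 0.28 and 0.62 in vivo. Over all kept probes the medians were 0.31 and 0.32, 0.35 and 0.50, and 0.47 and 0.62. The larger CD1 spread held on both sides of the gap, as in Timmdc1 in ISM1 (SD 0.27 in B6 and 1.23 in CD1) and in Rmdn3 in vivo (SD 0.28 and 1.08). B6 signal was under detection on all arrays of Rps6kl1 and on some of Ggct, Atp10d, Trappc12 and Ccdc144b, and the part of this in the smaller B6 spread was not tested.

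Other measures also moved with the strain. The array medians of intensity ran from 107 to 154 in B6 and from 90.6 to 138 in CD1, and 9206 to 11147 against 8964 to 10896 probes were detected. Before background correction and normalization, the mean intensity in vivo was 263 in CD1 and 299.5 in B6 for Timmdc1. It was 168 and 185 for Trappc12 and 161 and 160 for the leading probe of Ggct, so these in vivo gaps rest on those steps. For Atp10d it was 286 and 182, and for Ccdc144b 398 and 190. With the median intensity as a covariate the mean gap was 1.59 for Timmdc1, 1.71 for Ggct, 1.45 for Atp10d, 1.77 for Trappc12, 1.69 for Ccdc144b, -2.04 for Aqr, -1.23 for Rmdn3, -0.84 for Tomm22 and -0.84 for Ccdc93. Of 6 listed sex-linked genes 5 were measured. Eif2s3y averaged 9.78 in B6 and 4.93 in CD1. Among the other Y-linked genes Kdm5d averaged 5.48 and 5.02 and Usp9y 6.23 and 7.70, while the Uty means differed by 0.02. Eif2s3y was detected on 13 of the 22 arrays and Kdm5d on 8, so the means of these 2 include values under detection. Xist, expressed from the inactive X, averaged 8.54 and 8.82. Their part in the gaps of the 10 genes was not tested. Markers of the blastocyst's own lineages were measured for 8 of 8 trophectoderm, 6 of 6 inner cell mass and 5 of 6 primitive endoderm genes. Of these 0 differed between the strains (limma, adjusted p under 0.05), and of all 9345 tested genes 11 were higher in CD1 and 11 lower. At an unadjusted p of 0.05 there was 1 marker, against 10.1% of all tested genes. It was Pou5f1 of the inner cell mass, at -1.39 (SE 0.53, limma adjusted p = 0.373). By sign alone, 7 of 8 trophectoderm, 3 of 6 inner cell mass and 1 of 5 primitive endoderm markers were lower in CD1, against 4530 of the 9345 genes, which was not tested. The mean over a list of the log2 level ran from 10.0 to 12.2 for trophectoderm in B6 and from 9.92 to 12.0 in CD1, from 9.05 to 9.68 and from 8.67 to 9.57 for the inner cell mass, and from 8.40 to 10.8 and from 8.21 to 11.0 for primitive endoderm. Of markers of other cells, 0 of 7 for cumulus cells, 1 of 6 for blood and 3 of 6 for reproductive tract epithelium passed the detection filter. In bulk RNA, fewer cells of a type and less RNA per cell cannot be told apart.

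Lists of partners were read for 9 of the 10 genes, all but Ccdc144b. Of 128 listed genes of the same complexes, families and pathways 81 were measured, and 0 differed between the strains (limma, adjusted p under 0.05). Of all 9345 tested genes, 11 were higher in CD1 and 11 lower at that threshold. Among the 81, 3 were higher and 3 lower in CD1 at an unadjusted p of 0.05, 7.41% against 10.1% of all tested genes. The median difference was 0.04 against 0.01. By list, 0 of 5 other translocase subunits, 0 of 10 complex I assembly factors, 0 of 8 glutathione genes, 0 of 6 P4-ATPase genes, 0 of 3 S6 kinases, 0 of 10 TRAPP subunits, 0 of 10 splicing factors, 0 of 17 contact-site genes and 0 of 12 endosomal recycling genes passed. All 6 were named after their values were seen. In the direction of their member were Ndufaf1, a complex I assembly factor, at 0.36 (SE 0.17, limma adjusted p = 0.480) and Itpr3, a calcium channel of the endoplasmic reticulum on the list of Rmdn3, at -1.09 (SE 0.35, limma adjusted p = 0.264). In the opposite direction were Tomm7, a small translocase subunit, at 0.61 (SE 0.25, limma adjusted p = 0.400), Trappc3, a core TRAPP subunit, at -0.77 (SE 0.31, limma adjusted p = 0.394), the P4-ATPase Atp9a at -0.94 (SE 0.40, limma adjusted p = 0.422) and the splicing factor Crnkl1 at 0.69 (SE 0.22, limma adjusted p = 0.265).

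The genes next to a member on its chromosome were read to see whether a gap extended along it. The 3 nearest measured genes on each side made 60 neighbours, of which 0 passed (limma, adjusted p under 0.05). Of all 9345 tested genes, 11 were higher in CD1 and 11 lower at that threshold. Among the neighbours 10 had an unadjusted p under 0.05, 16.7% against 10.1% of all tested genes. The median size of their difference was 0.252 against 0.213. Trappc12 had the most, with Rnaseh1 at 0.65 (SE 0.23), Adi1 at 1.10 (SE 0.26, limma adjusted p = 0.103) and Eipr1 at 0.42 (SE 0.17), all higher in CD1 like Trappc12 itself. Adi1, which encodes an enzyme of methionine salvage, has another probe that did pass in the strain contrast, at 1.51 (SE 0.25, limma adjusted p = 0.0318), and it was named after its values were seen. Next to Aqr, Aven was lower in CD1 at -1.44 (SE 0.43, limma adjusted p = 0.234) and Emc7 higher at 0.67 (SE 0.20, limma adjusted p = 0.245). The 3 neighbours on each side of Timmdc1, Ggct, Tomm22 and Ccdc144b had no unadjusted p under 0.05.

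**Figure D4:**
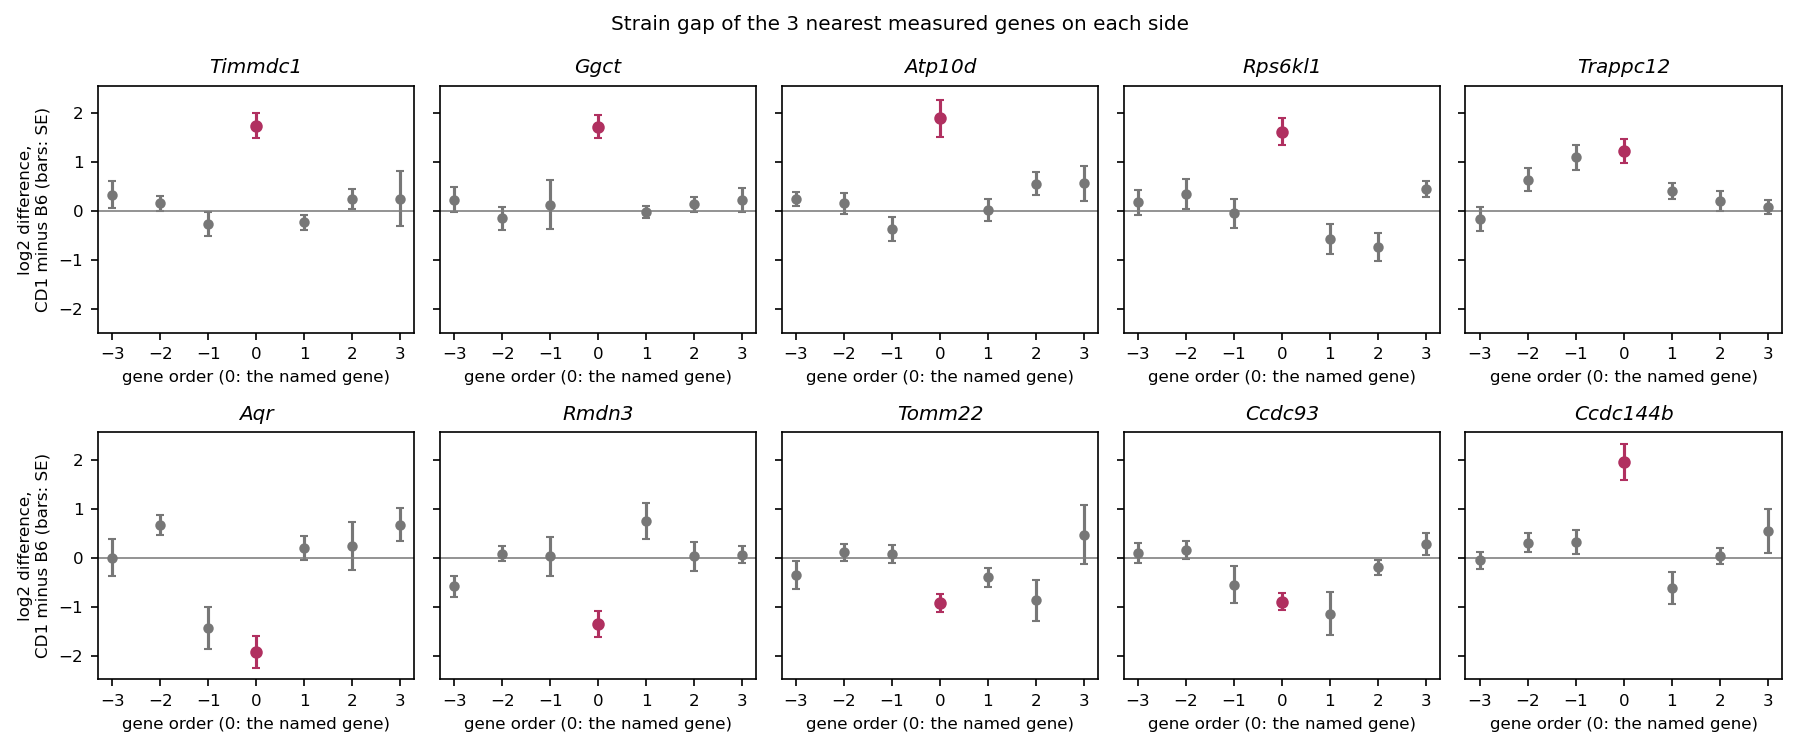
Difference of CD1 minus B6 in log2 normalized intensity, averaged over HTF, ISM1 and in vivo, for each of the 10 genes (red, position 0) and the 3 nearest measured genes on either side in gene order (grey), with bars of 1 SE. Around Trappc12 the neighbours at -2, -1 and 1 lie above 0 with it, at 0.65, 1.10 and 0.42, while no neighbour of Timmdc1 or Ggct comes near the value of the gene itself.

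Across the 22 arrays the levels of the 10 genes followed each other to differing degrees, a likeness that their choice by the strain gap fixes in part. The highest Pearson r of a gene with another of the 10 ran from 0.612, for Trappc12 with Ggct, to 0.889, for Timmdc1 with Ggct. The most negative r was -0.916, for Ggct with Aqr. These are given as descriptions since the arrays share strain and medium. Among all other tested genes the highest r was with Frg1 for both Timmdc1 (0.874) and Ggct (0.877), with Ripk4 for Atp10d (0.870), Adh4 for Rps6kl1 (0.821), Sft2d2 for Trappc12 (0.792) and Poc1a for Ccdc144b (0.803). For the genes lower in CD1 it was Ldb1 for Aqr (0.886), Mak16 for Rmdn3 (0.857), Gm5801 for Tomm22 (0.872) and Lmtk2 for Ccdc93 (0.790). Each of these genes lies on another chromosome than its partner.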

How the data were processed

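RNA of 22 blastocyst samples was measured on Illumina MouseRef-8 arrays. The deposited table gives a linear bead intensity for each of 25697 probes and, beside it, the detection p-value the authors deposited. The authors also deposited log2 values, used as an alternative. BeadStudio 3.2, RMA and lumi are named in the submitters' processing notes, without order or settings, and no genome build is given in the sources used here. Values of 0 columns belonged to no sample.

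The intensities were background-corrected with the detection p-values (limma 3.58.1 in R 4.3.3, neqc procedure), given an offset of 16, brought to common quantiles and log2-transformed. The 12992 probes kept were those detected at p under 0.05 on 3 or more of the arrays. Gene symbols came from the array's annotation, which names 1 gene for 23978 probes and no gene for 1719, and joins several genes for 0. A linear model of 8 group means was fitted to all kept probes and 22 arrays with limma, two-sided, with 14 residual and 3.60 prior degrees of freedom, and p-values were Benjamini-Hochberg adjusted over all kept probes. Precision is limited by how many arrays there were. The script was tested on simulated data.

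The members, the gene lists and the tests were chosen with earlier results of these data known. Named are all members, called genes of the pathway lists (up to 4 a list), called neighbours and the gene most correlated with each member. Other genes were picked with their values in view, as marked in the text. Alternatives were other normalizations, filters, weights, models and left-out arrays. A pairing of the arrays by shared replicate number was looked for and not seen. Array slides and scan dates were not used here.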

Additional observations from a re-analysis of the deposited data

How the results depend on the processing

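Over 34 alternative settings, all with the arrays normalized to each other, the mean gap of the 10 leading probes kept its sign in 340 of 340 recomputed values. The other kept probes kept theirs in 221 of 231, and the exceptions were all of the second Rmdn3 probe, whose gap was 0.01. Of 571 gaps over all kept probes, 566 moved by less than 1 SD between arrays. The others were Ggct at 1.02 and Rps6kl1, fitted to undetected B6 values, at 1.00 with a background offset of 50, Rps6kl1 at 2.46 in the authors' deposited log2 values, Trappc12 at 1.77 with median intensity as a covariate and Ccdc93 at -1.42 with median scaling. Median scaling moved the median of all probes by -0.28, and relative to it Ccdc93 was at -1.14. How many probes the strain contrast called depended strongly on the setting: 31 as reported, 778 with median scaling, 159 with array quality weights, 106 in an additive model with KSOM and 3 with no detection filter, with 1 to 10 of the 10 genes among them. Leaving out 1 array in turn gave 3 to 80 probes, the highest without CD1 in vivo replicate 1. In KSOM the count of members called was 1, Timmdc1, with array quality weights and without CD1 ISM1 replicate 3 (limma adjusted p = 0.0398 and 0.0391), and 0 otherwise, a range of 0 to 1 over left-out arrays. Its adjusted p ran from 0.0391 to 0.995 over 32 alternatives, the highest in the fit to the KSOM arrays alone. For KSOM minus in vivo in B6 it was 1 with array quality weights, the second Rmdn3 probe, in a setting where 384 of the 12992 kept probes passed. With median scaling 3 pathway genes and 7 neighbours were called, and with the additive model 1 neighbour, Adi1. All other counts of members, pathway genes and neighbours stayed at 0, left-out arrays included. The cause of these changes was not tested. With the replicate number as a block, 0 members passed in KSOM or for any medium, and the strain contrast called 7 probes. Of the 10 genes, 2 were among these 7 probes. Deviations of same-numbered arrays had a mean r of -0.017 over 63 pairs, from -0.72 to 0.52, and those of other numbers 0.007 over 126 pairs. Of 21 arrays, 6 correlated best with their own number. A pairing was thus not seen, which does not show that there was none.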
